A study of Homo sapiens with 3 samples.

Results

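DNA replication and nucleotide synthesis are described here through 38 genes whose products copy the genome or supply its building blocks. Members were found by gene symbol in the platform annotation. The symbols matched 74 of 54675 probe sets, of which 70 were annotated to 1 member alone and 4 jointly to PRIM2 and its pseudogene PRIM2BP. The 38 members, all of them measured, were read from the 70 probe sets, among 19775 genes that had a probe set of their own.

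Expression had been measured in 3 human cell lines, on 1 Affymetrix HG-U133 Plus 2.0 array each. All 3 are C4-2B cells, an established castration-resistant prostate cancer line descended from LNCaP, grown in RPMI medium with fetal bovine serum. C4-2B parental cells received no drug, C4-2B MDVR cells were kept in 20 µM enzalutamide, which blocks the androgen receptor, and C4-2B AbiR cells were kept in 10 µM abiraterone acetate, which inhibits androgen synthesis. Per the study's methods, parental cells were passaged alongside the resistant sublines, and whether a subline is 1 clone was not given in the sources used here.

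A chromosome is copied once in each cell cycle. In G1, the origin recognition complex with CDC6 and CDT1 loads the MCM helicase onto DNA. In S phase, CDC45 and the GINS complex switch the helicase on, DNA polymerase alpha with primase starts each strand, and polymerases delta and epsilon extend it on the sliding clamp PCNA. Ribonucleotide reductase and thymidylate synthase provide the deoxynucleotides. Many of these genes are transcribed together at the G1/S transition by E2F factors, and cells that leave the cycle lower them as a group.

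Every value below is on the log2 scale, and the deposited values had been centred within each probe set, so that no expression level remained and only differences between arrays of the same probe set are read. A gene with several probe sets was given the mean of their differences, and ± is the SD between those probe sets, a technical spread. With 1 array per line there was no replicate, no test and no p-value, and no difference can be assigned to the drug rather than to the culture or the array. Both comparisons with the parental line use the same parental array. Bacterial control transcripts gave the technical scale. Their 45 probe sets differed with an SD of 0.13 between MDVR and parental, 0.10 between AbiR and parental and 0.12 between the resistant lines, and reached 0.35, 0.20 and 0.34 at most in absolute size. The prostate identity of the cells could not be checked from centred values. The 9 luminal prostate markers measured went both ways, with medians of −0.10 in MDVR and −0.13 in AbiR that hide large differences. The androgen-regulated KLK3, which encodes prostate-specific antigen, was at −4.07 ± 3.23 in MDVR and −3.17 ± 2.36 in AbiR, SLC45A3 at −2.91 ± 0.72 and −3.15 ± 0.35, and KLK2 at −1.29 ± 1.19 and −2.12 ± 1.93. At the high end ACP3, prostatic acid phosphatase, was at 0.64 ± 0.37 and 0.85 ± 0.69.

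Most replication and nucleotide synthesis genes lay lower in the AbiR array than in the parental array, by a small amount. The log2 difference was below 0 for 32 of 38 members, or 84.2%, where 52.4% of all genes were below 0, and above 0 for 6, where 47.4% were. The members' median was −0.22, against −0.011 over all genes, and the members ran from −1.00 for GMNN to 0.37 for POLE. A difference lower than any spiked control reached was seen in 24 members (63.2%, 17.0% of all genes), and a difference higher than any control in 1, POLE (16.0% of all genes). Only GMNN differed by at least 1.5-fold, and it was lower (2.52% of all genes), while 0 members were at least 1.5-fold higher (3.32% of all genes) or 2-fold higher (1.07% of all genes). Probe sets of suffix _s_at, _x_at or _a_at have probes that can match several transcripts. Without them GMNN was not measured, and GINS3, at −0.77, was the member at least 1.5-fold lower (2.53% of all genes). Small differences spread over many members made up the AbiR pattern, with few of large size.

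In the MDVR array the members were more mixed. The difference from parental was below 0 for 25 of 38 members, or 65.8%, where 42.4% of all genes were below 0, and above 0 for 13, where 57.4% were. The median was −0.10 against 0.044 over all genes. At least 1.5-fold lower were 3 members, GINS3, RRM2 and GMNN (7.89%, 5.15% of all genes), and 1 member, RPA3, was at least 1.5-fold higher (4.81% of all genes). No member reached 2-fold in either direction in MDVR, where 1.67% of all genes were that much lower and 1.65% that much higher. Without probe sets of suffix _s_at, _x_at or _a_at, GINS3 was at −1.18 and RRM2 at −1.01, both past 2-fold. MCM10, at −0.87, was then past 1.5-fold as well (3 of 29 members, 5.96% of all genes). With the median of the probe sets in place of the mean, MCM10 was also past 1.5-fold, at −0.66 (4 members, 5.09% of all genes). Past every spiked control on the low side were 8 members, CDC45, GINS1, GINS3, GMNN, MCM3, MCM10, ORC6 and RRM2 (21.1%, 10.9% of all genes), and on the high side RPA3 alone (12.1% of all genes). The largest spiked control was 0.35 in MDVR and 0.20 in AbiR, so the counts past the controls in the 2 lines have unlike cut-offs. The 1.5-fold threshold fell between GMNN at −0.71 and GINS1 at −0.57, a 1.49-fold difference. Fewer cells in S phase and less RNA per cell cannot be told apart in bulk RNA.

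**Figure D1:**
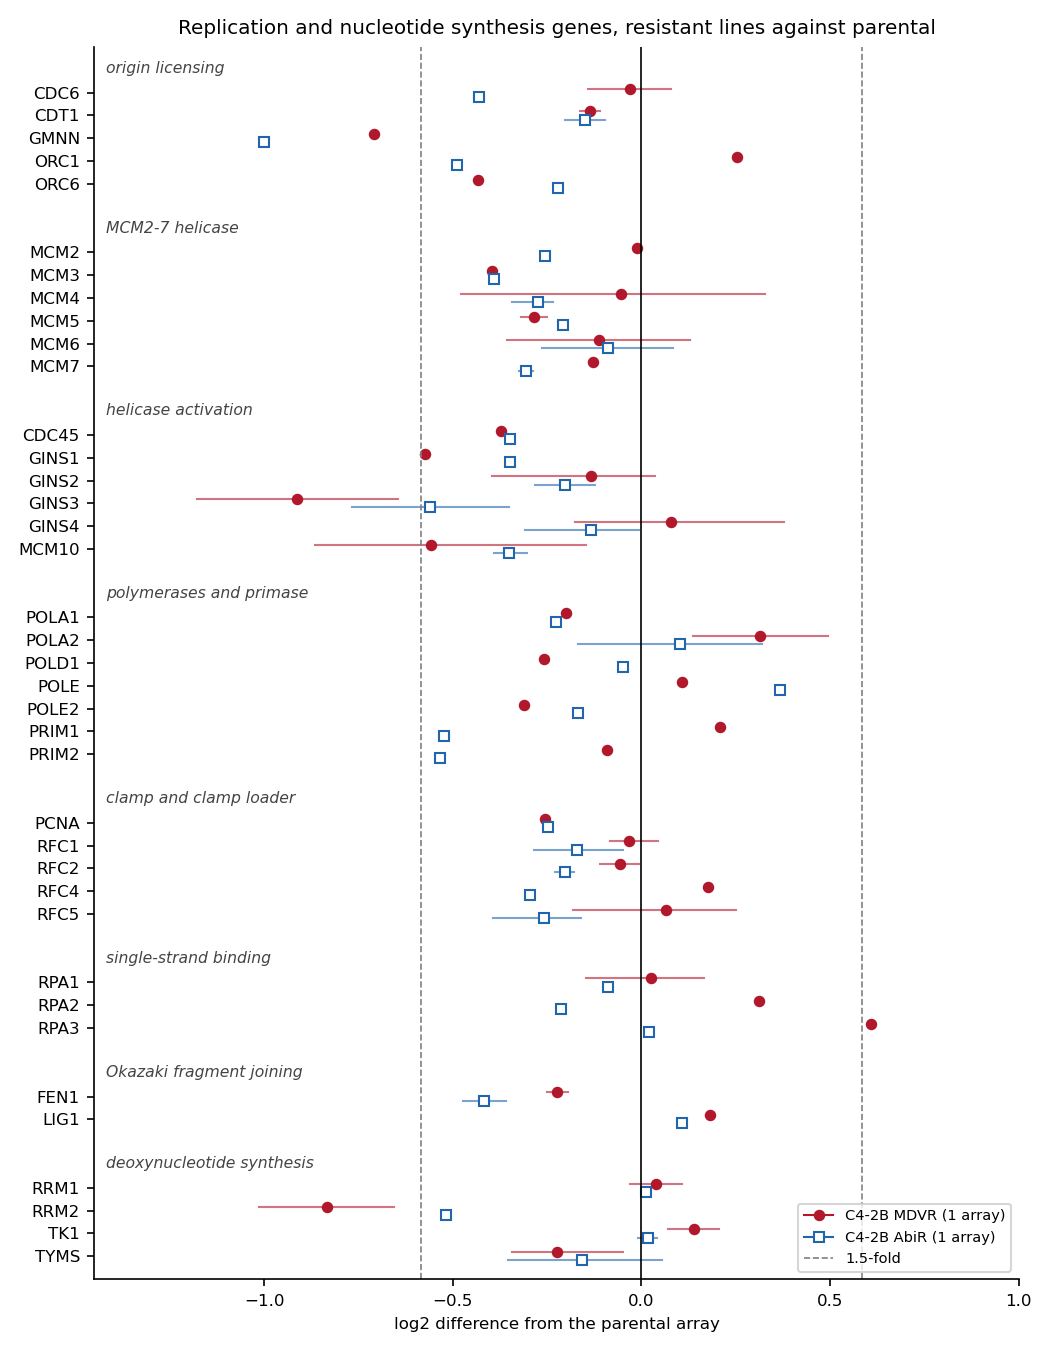
Log2 difference from the parental array for each of the 38 members, grouped by role, with C4-2B MDVR and C4-2B AbiR as filled circles and open squares, horizontal lines from a gene's lowest to its highest probe set, and dashed lines at 1.5-fold. Squares (AbiR) lie left of 0 for 32 members and circles (MDVR) for 25, with GINS3, RRM2 and GMNN farthest left and RPA3 farthest right among the circles.

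The gene means average the single probe sets, so the counts below describe the same values and are no separate support. For AbiR minus parental, 60 of 70 probe sets were below 0, with a median of −0.23. For MDVR minus parental, 44 of 70 were below 0, with a median of −0.10. Over all genes, 52.4% were below 0 in AbiR and 42.4% in MDVR, and the share over all probe sets was not taken. Several probe sets were present for 20 members. In AbiR, all probe sets of a member were lower for 15 of the 20, all were higher for RRM1, and MCM6, POLA2, TK1 and TYMS had probe sets on both sides of 0. In MDVR, all were lower for 9, all were higher for 2, and 9 members were split. The shares over all genes with several probe sets were not taken. The median SD between probe sets of a member was 0.059 in AbiR and 0.16 in MDVR, against 0.15 and 0.20 over all genes with several probe sets.

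A sequence feature that the choice of members did not use was more frequent in the promoters of these genes than over all promoters. In RefSeq promoters of assembly GRCh38.p14, each covering 250 bases before and 50 after a start site, 33 members had 43 promoters in the table, and GINS4, MCM4, MCM5, RPA2 and RPA3 were not in it. The E2F consensus was searched as TTTCCCGC or TTTGGCGC on both strands, forms that cannot overlap on the same strand but can on opposite strands. At least 1 promoter held it in 15 of 33 member genes, or 45.5%, against 2.75% of all genes in the table, and 34.9% of member promoters against 2.27% of all 35116 promoters. Of 16 motifs, 11 began no more than 100 bases before the start site or after it. The share of motifs in that stretch over all promoters was not taken. A match in letters is a description of the sequence and not evidence of a bound site. The promoters of GMNN and GINS3 are shown because they are the members with the largest differences among those holding the motif, which is in capitals; both read 5′ to 3′ on the strand of the gene.
GMNN (chr6:24775163-24775462, plus strand): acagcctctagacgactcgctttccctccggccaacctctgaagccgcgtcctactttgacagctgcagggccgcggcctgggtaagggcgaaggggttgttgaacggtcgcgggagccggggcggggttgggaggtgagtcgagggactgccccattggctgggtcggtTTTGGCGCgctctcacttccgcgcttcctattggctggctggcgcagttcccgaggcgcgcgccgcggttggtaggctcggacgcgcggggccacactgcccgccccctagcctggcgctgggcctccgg
GINS3 (chr16:58392221-58392520, plus strand): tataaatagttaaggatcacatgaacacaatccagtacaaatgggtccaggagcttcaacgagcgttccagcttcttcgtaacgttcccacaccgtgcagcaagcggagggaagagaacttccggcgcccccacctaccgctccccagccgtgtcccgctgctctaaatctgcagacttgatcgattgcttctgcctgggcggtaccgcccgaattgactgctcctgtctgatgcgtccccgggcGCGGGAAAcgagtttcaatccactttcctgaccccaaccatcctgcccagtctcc

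For the other roles, the window of 24 bases around the motif is shown for the motif-bearing member that was lowest in MDVR minus parental, with the motif in capitals and the strand of the gene 5′ to 3′, a choice made after the values were seen. MCM3 stands for the helicase, POLE2 for the polymerases, PCNA for the clamp, LIG1 for Okazaki fragment joining and TYMS for deoxynucleotide synthesis. In GINS3, POLE2, PCNA and TYMS the motif lies on the opposite strand and reads as its reverse complement.
MCM3 (chr6:52284901-52284924, minus strand): atggtacgTTTCCCGCcaccgcgg
POLE2 (chr14:49688204-49688227, minus strand): cggcggtgGCGCCAAAtcgcaaat
PCNA (chr20:5126666-5126689, minus strand): cgtcagggGCGGGAAAaggcgtgc
LIG1 (chr19:48170443-48170466, minus strand): tcacccctTTTCCCGCcctcctcc
TYMS (chr18:657606-657629, plus strand): ggacggccGCGGGAAAaggcgcgc

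**Figure D2:**
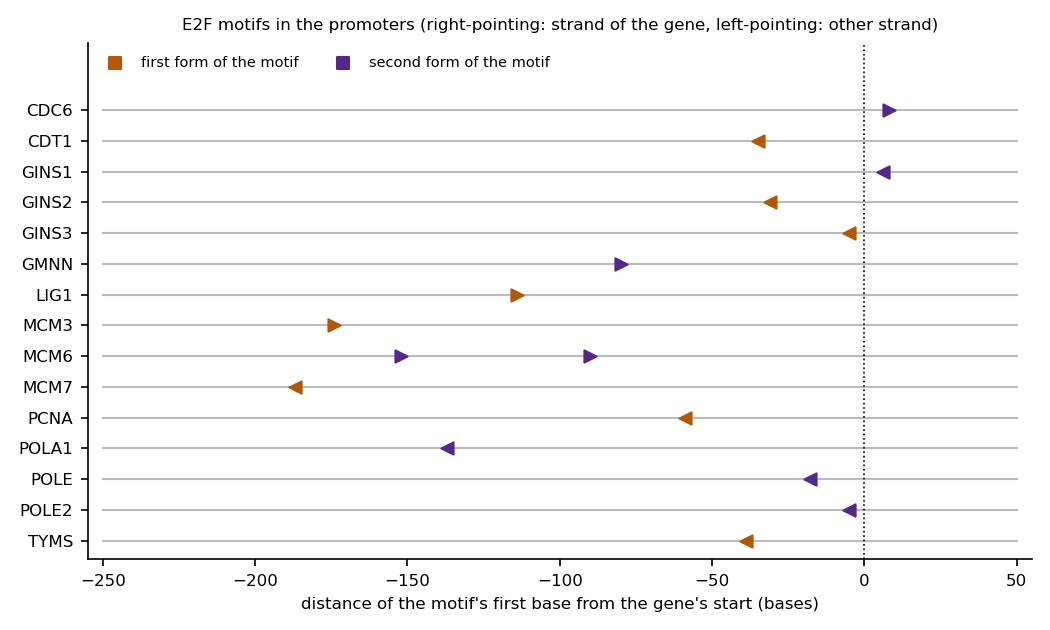
Position of each of the 16 E2F motifs in the promoters of 15 members, as the distance in bases of the motif's first base from the gene's start; right-pointing marks lie on the strand of the gene and left-pointing marks on the other strand. MCM6 holds 2 motifs, and 11 of the 16 begin no more than 100 bases before the start or after it, a share not taken over all promoters.

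The 15 members whose promoters held the motif had a median difference of −0.20 in MDVR and −0.23 in AbiR, with 13 of 15 below 0 in MDVR and 13 of 15 in AbiR. The 18 members whose listed promoters did not hold it had medians of −0.023 and −0.26, with 10 of 18 below 0 in MDVR and 15 of 18 in AbiR. Over all genes, 42.4% were below 0 in MDVR and 52.4% in AbiR. No test of members with against members without the motif was made. RRM2, ORC1 and PRIM1 were among the 6 members that differed by at least 1.5-fold in some comparison, and these letters were not in their windows. CCAAT, the box bound by NF-Y, was present on either strand in 60.5% of member promoters against 34.6% of all promoters.

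Origin licensing held the member with the largest difference of all. Geminin, encoded by GMNN, binds CDT1 and blocks a second round of licensing. Its 1 probe set read 0.72 in parental, 0.013 in MDVR and −0.28 in AbiR. The parental array was the highest, and the difference was −0.71 in MDVR (1.64-fold lower) and −1.00 in AbiR (2.00-fold lower), where 0.799% of all genes lay lower still and 0.804% were at least 2-fold lower. That probe set carries the suffix _s_at, which marks probes that can match more than 1 transcript.

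The loading factors around geminin were uneven. ORC1, the largest subunit of the origin recognition complex, read 0.24 in parental, 0.50 in MDVR and −0.24 in AbiR, so that MDVR was highest and AbiR lowest. ORC6, its smallest subunit, stood at −0.43 in MDVR and −0.22 in AbiR. CDC6, the loading ATPase, differed by −0.032 ± 0.16 in MDVR and −0.43 ± 0.019 in AbiR over 2 probe sets. CDT1, which delivers the MCM ring, read 0.18, 0.019 and −0.019 on one probe set and 0.10, −0.0067 and 0.0067 on the other, in the order parental, MDVR, AbiR. Parental was the highest array on both CDT1 probe sets, and the mean difference was −0.14 in MDVR and −0.15 in AbiR. Over the 5 licensing genes, 4 were below 0 in MDVR and 5 in AbiR, with medians of −0.14 and −0.43.

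All 6 subunits of the MCM2 to MCM7 ring, the motor that unwinds the double helix, were below 0 in MDVR and in AbiR, with medians of −0.12 and −0.26. MCM2 was only just so in MDVR, and MCM4 turned to 0.068 there without probe sets of suffix _s_at, _x_at or _a_at. MCM3 read 0.25 in parental, −0.15 in MDVR and −0.14 in AbiR. The resistant arrays were alike and below parental, with differences of −0.40 and −0.39. MCM2 read 0.13, 0.12 and −0.12 in parental, MDVR and AbiR, which put only AbiR below parental beyond the spread of the controls, at −0.25 against −0.012 in MDVR. MCM5 and MCM7, with 2 probe sets each, differed by −0.29 and −0.13 in MDVR and by −0.21 and −0.31 in AbiR.

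The MCM genes with discordant probe sets were MCM4 and MCM6. The 5 MCM4 probe sets ranged from −0.48 to 0.33 in MDVR, with a mean of −0.055 ± 0.33, while in AbiR they ranged only from −0.34 to −0.24, with a mean of −0.27 ± 0.045. One MCM6 probe set read 0.13, 0.26 and −0.13 in parental, MDVR and AbiR, and the other 0.16, −0.20 and 0.24. The order of the arrays was reversed between the MCM6 probe sets, so that its means of −0.11 ± 0.34 in MDVR and −0.090 ± 0.25 in AbiR lie inside their own spread.

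The factors that switch the helicase on were the group with the lowest median in MDVR, at −0.46, and stood at −0.35 in AbiR. GINS3, a subunit of the 4-part GINS complex, read 0.50 in parental, −0.15 in MDVR and 0.15 in AbiR on one probe set, and 0.82, −0.35 and 0.056 on the other. On each probe set parental was highest, AbiR intermediate and MDVR lowest. The differences were −0.91 ± 0.38 in MDVR (1.88-fold lower) and −0.56 ± 0.30 in AbiR (1.47-fold lower). GINS1 was at −0.57 in MDVR and −0.35 in AbiR on 1 probe set, and GINS2 at −0.13 and −0.20 over 3. Only GINS4 was above 0 in MDVR among the 6 activation genes, and its 4 probe sets did not move together. They read 0.0028, 0.096, 0.23 and 0.016 in parental, 0.10, 0.47, 0.058 and 0.027 in MDVR, and −0.0028, −0.096, −0.073 and −0.016 in AbiR. AbiR was the lowest array on all 4, MDVR the highest on 3, and the mean differences were 0.079 in MDVR and −0.13 in AbiR.

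CDC45, the helicase's partner at the moving fork, differed by −0.37 in MDVR and −0.35 in AbiR on 1 probe set. MCM10, which is needed for origin firing, differed by −0.56 ± 0.37 in MDVR and −0.35 ± 0.043 in AbiR over 3 probe sets. Its probe sets ran from −0.87 to −0.15 in MDVR, all below 0. In both genes the parental array was the highest on every probe set.

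The polymerases and primase did not share 1 direction. In MDVR 4 of 7 were below 0 and in AbiR 5 of 7, with medians of −0.090 and −0.17. PRIM1, the catalytic primase subunit that lays down RNA primers, read 0.26 in parental, 0.47 in MDVR and −0.26 in AbiR. MDVR was the highest array and AbiR the lowest, at 0.21 and −0.52 from parental. PRIM2, the large primase subunit, read 0.17, 0.077 and −0.37 on the probe set annotated to it alone, so that AbiR was lowest, at −0.53, with MDVR at −0.090. PRIM2 shares sequence with PRIM2BP, and its value is uncertain for that reason.

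Among the polymerases themselves, POLE, the catalytic subunit of the leading-strand polymerase epsilon, read −0.054 in parental, 0.054 in MDVR and 0.31 in AbiR. AbiR was the highest array, the reverse of most members, at 0.37 against 0.11 in MDVR. POLE2, its second subunit, read 0.20, −0.12 and 0.028, with parental highest and differences of −0.31 in MDVR and −0.17 in AbiR. POLA1, the catalytic subunit of polymerase alpha, stood at −0.20 and −0.23, and POLD1, that of polymerase delta, at −0.26 and −0.049. POLA2, the accessory subunit of polymerase alpha, read 0.084, −0.091 and −0.24 in parental on its 3 probe sets, 0.39, 0.047 and 0.26 in MDVR, and −0.085, 0.070 and 0.078 in AbiR. MDVR lay above parental on all 3 POLA2 probe sets, by 0.31 ± 0.18, while AbiR did so on 2 of 3, by 0.10 ± 0.25.

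The sliding clamp PCNA, which tethers polymerases to DNA, read 0.25 in parental, −0.0041 in MDVR and 0.0041 in AbiR. Parental was the highest array, and the differences of −0.26 and −0.25 were almost the same size. The clamp loader, which opens and closes the ring, was lower in AbiR in each of the 4 subunits that are members. RFC3, a further subunit that is not a member, was at −0.69 ± 0.16 in MDVR and −0.51 ± 0.20 in AbiR. RFC4 read 0.040 in parental, 0.22 in MDVR and −0.25 in AbiR, with MDVR highest and AbiR lowest. RFC5 differed by 0.066 ± 0.22 in MDVR and −0.26 ± 0.12 in AbiR, and RFC2 by −0.058 and −0.20. RFC1, the large subunit, read 0.12, 0.024 and 0.18 in parental on its 3 probe sets, 0.057, 0.067 and 0.10 in MDVR, and −0.057, −0.024 and −0.10 in AbiR. AbiR was the lowest array on each RFC1 probe set, and the means were −0.034 in MDVR and −0.17 in AbiR. Without suffixed probe sets the small MDVR differences of RFC1 and RFC5 changed sign, to 0.043 and −0.026.

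Replication protein A, the trimer that coats single-stranded DNA, was the only role group with all measured members above 0 in MDVR. RPA3, its smallest subunit, read −0.30 in parental, 0.31 in MDVR and −0.28 in AbiR. MDVR alone was high, at 0.61 above parental (1.53-fold, where 95.5% of all genes lay lower), and AbiR differed by 0.021. RPA2 read 0.074, 0.39 and −0.14, again with MDVR highest and AbiR lowest, at 0.31 and −0.21 from parental. RPA1, the large DNA-binding subunit, read 0.045, 0.050 and 0.11 in parental on its 3 probe sets, 0.096, 0.22 and −0.034 in MDVR, and −0.045, −0.050 and 0.034 in AbiR. Its mean differences of 0.024 ± 0.16 in MDVR and −0.089 ± 0.011 in AbiR were within the SD of the spiked controls, and RPA1 turned to below 0 in MDVR when each array was centred on its own median or on the hybridization controls, or when suffixed probe sets were left out. RPA3 dropped under 1.5-fold against parental with either centring.

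FEN1, the nuclease that trims Okazaki fragments, read 0.28, 0.081 and −0.081 in parental, MDVR and AbiR on one probe set and 0.36, 0.11 and −0.11 on the other. The order of the arrays was the same on both, and the means were −0.22 in MDVR and −0.42 in AbiR. LIG1, the ligase that seals the fragments, read −0.054, 0.13 and 0.054, with parental lowest and differences of 0.18 and 0.11.

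Deoxynucleotide synthesis differed mainly in a single gene. RRM2, the subunit of ribonucleotide reductase that is made for S phase and limits the enzyme, read 0.48 in parental, −0.54 in MDVR and −0.045 in AbiR on one probe set, and 0.41, −0.24 and −0.10 on the other. On both the parental array was highest and MDVR lowest. The differences were −0.83 ± 0.25 in MDVR (1.78-fold lower, with 2.44% of all genes lower still) and −0.52 ± 0.0052 in AbiR (1.43-fold lower). RRM1, the large subunit of the same enzyme, stood at 0.038 in MDVR and 0.012 in AbiR over 2 probe sets, well inside the spread of the controls.

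The thymidine synthesis genes TK1 and TYMS differed in direction. TK1, which salvages thymidine, read −0.067 and −0.027 in parental on its 2 probe sets, 0.14 and 0.044 in MDVR, and −0.027 and −0.035 in AbiR. MDVR was highest on both, at 0.14 above parental, and AbiR differed by 0.016. TYMS, which makes thymidylate anew, differed by −0.22 in MDVR and −0.16 in AbiR over 3 probe sets, which ran from −0.34 to −0.049 in MDVR and from −0.35 to 0.054 in AbiR. Centring on the hybridization controls put RRM1 below 0 in MDVR, and RRM1, TK1 and RPA3 below 0 in AbiR. Leaving out suffixed probe sets put TK1 below 0 in AbiR.

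**Figure D3:**
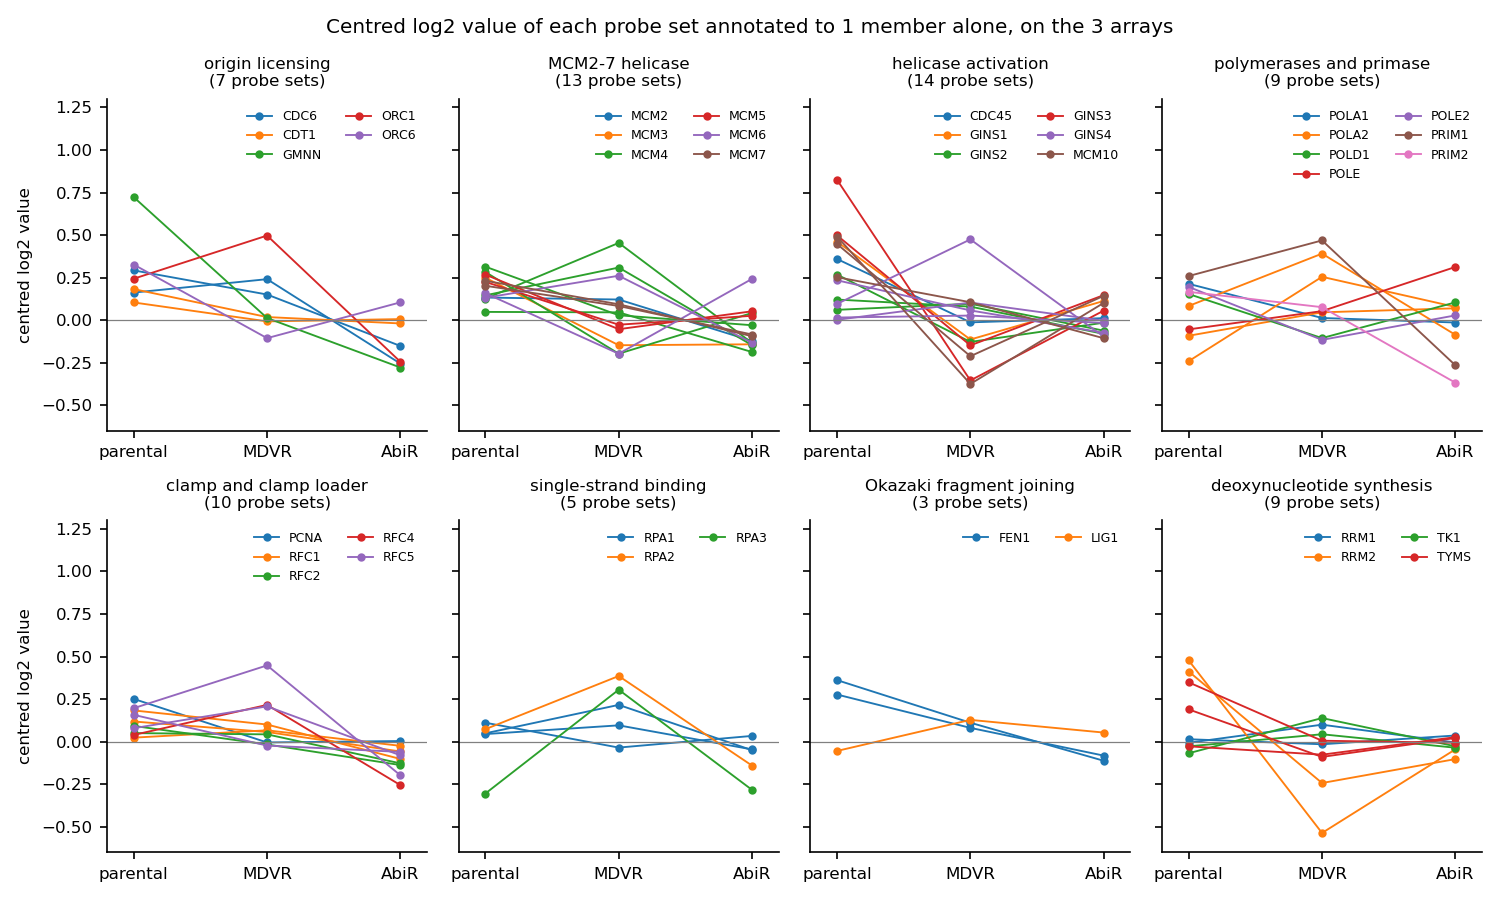
Centred log2 value of each of the 70 probe sets annotated to 1 member alone, on the parental, MDVR and AbiR arrays. Values can be compared across the 3 arrays of a probe set and not between probe sets; the parental array is above AbiR for 60 of the 70 and above MDVR for 44.

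The resistant lines were also compared with each other, without the parental array. MDVR was higher than AbiR in 24 of 38 members (59.9% of all genes), with 14 below 0 (36.8%, 39.9% of all genes), and the median was 0.094 against 0.054 over all genes. ORC1, PRIM1 and RPA3 were at least 1.5-fold higher in MDVR (7.89%, 2.77% of all genes), at 0.74, 0.73 and 0.59, and 0 were at least 1.5-fold lower (3.96% of all genes). No member differed 2-fold between the resistant lines, where 1.13% of all genes were that much lower and 0.875% that much higher in MDVR. Past every spiked control were 7 members on the high side, which were CDC6, ORC1, PRIM1, PRIM2, RFC4, RPA2 and RPA3 (10.0% of all genes), and 1 on the low side, GINS3 (9.44% of all genes). RPA3 fell under 1.5-fold, at 0.56, when each array was centred on its median, which left 2 members. The 7 members on the high side came from licensing, primase, the clamp loader and replication protein A. Licensing genes ran from −0.21 for ORC6 to 0.74 for ORC1.

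**Figure D4:**
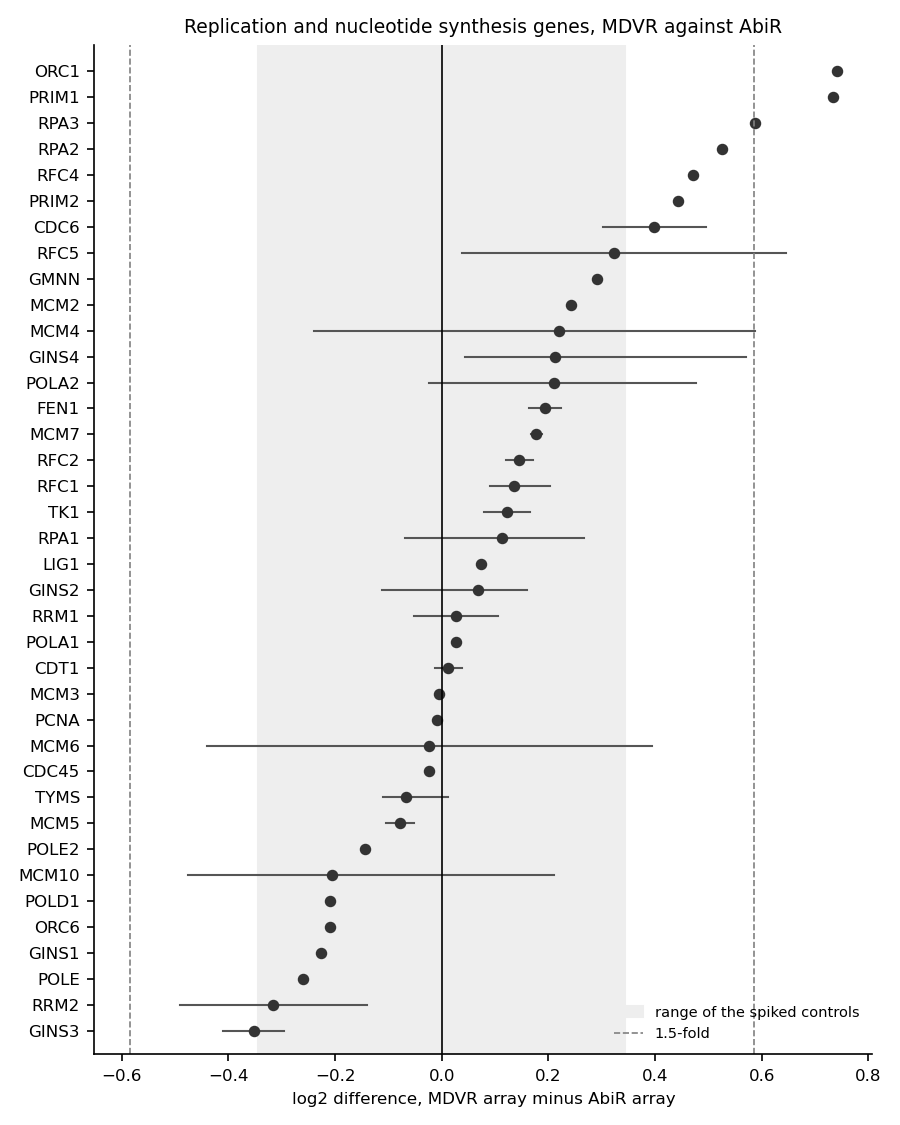
Log2 difference of each member between the C4-2B MDVR and C4-2B AbiR arrays, sorted from highest to lowest, with horizontal lines from a gene's lowest to its highest probe set, a grey band out to the largest absolute spiked control (0.34) and dashed lines at 1.5-fold. ORC1, PRIM1 and RPA3 lie past the dashed line on the right, and GINS3 alone lies past the band on the left.

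Further factors of the same pathway, taken from a list of 34 replication genes that are not members, had medians of −0.18 in MDVR and −0.15 in AbiR. In MDVR 25 of 34 were below 0 (73.5%, 42.4% of all genes) and in AbiR 26 of 34 (76.5%, 52.4% of all genes). At least 1.5-fold lower were 6 in MDVR, which were DBF4, ORC2, ORC5, POLE3, RFC3 and WDHD1 (17.6%, 5.15% of all genes), and 3 in AbiR, which were DBF4, POLE4 and WDHD1 (8.82%, 2.52% of all genes). DBF4, the activating subunit of the kinase that fires origins, was at −0.81 and −0.63, and WDHD1, which links the helicase to polymerase alpha, at −0.71 and −0.59. POLE3 and POLE4, the small subunits of polymerase epsilon, had their low values of −0.72 in MDVR and −0.60 in AbiR. At the high end stood ORC3, at 0.73 in MDVR and 0.20 in AbiR, and POLD4, a small subunit of polymerase delta, at 0.39 and 0.44. ORC4 was at 0.26 in MDVR and the helicase RECQL4 at 0.24 in AbiR. The promoters of 8 of 27 of these genes held the E2F motif, or 29.6%.

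Of 35 further nucleotide synthesis genes, 31 were measured, with medians of −0.090 in MDVR and −0.15 in AbiR. Below 0 were 19 in MDVR (61.3%, 42.4% of all genes) and 25 in AbiR (80.6%, 52.4% of all genes). MTHFD2, a mitochondrial folate enzyme that feeds one-carbon units into purines, was at −0.93 and −0.60. PFAS and PPAT, enzymes of purine synthesis, were at −0.66 and −0.43 in MDVR, and PFAS stood at −0.46 and PRPS1 at −0.40 in AbiR. RRM2B, the ribonucleotide reductase subunit that can replace RRM2 outside S phase, had the highest difference of this list in each resistant line, at 0.42 in MDVR and 0.58 in AbiR, opposite in sign to RRM2. SAMHD1, which breaks down deoxynucleotides, was at 0.55 in AbiR. ADSL and TK2 in MDVR and ATIC in AbiR were nearer to 0, at 0.20, 0.19 and 0.21.

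The 30 measured regulators of the G1/S transition had medians of −0.087 in MDVR and −0.15 in AbiR. Below 0 were 20 of 30 in each (66.7%), where 42.4% of all genes were in MDVR and 52.4% in AbiR. CDKN1A, the p21 inhibitor of cyclin-dependent kinases, was higher by 1.05 in MDVR and 0.51 in AbiR. SKP2, which marks the p27 inhibitor for degradation, was lower, at −0.61 and −0.89. The repressor E2F8 and the E2F partner TFDP1 were at −0.78 and −0.67 in MDVR, and E2F3 at −0.51 in AbiR. MYC stood at 0.50 in MDVR and −0.53 in AbiR, and E2F1 at −0.13 and −0.16. The inhibitor CDKN1C was at 0.34 and 0.22, and CDKN2B at 0.14 in AbiR.

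Genes of mitosis, which act after replication, were also mostly below parental. All 36 were measured, and 28 were below 0 in MDVR (77.8%, 42.4% of all genes) and 28 in AbiR (77.8%, 52.4% of all genes). The medians of the mitotic genes were −0.27 and −0.12, below the members' median in MDVR and above it in AbiR. CENPE, TTK and MAD2L1, which act at the kinetochore and its checkpoint, were lowest, at −1.09, −0.98 and −0.95 in MDVR and −0.81, −0.72 and −0.96 in AbiR. The highest were AURKB, KIF2C and NUSAP1 in MDVR, at 0.32, 0.28 and 0.24, and MKI67, PRC1 and ESPL1 in AbiR, at 0.16, 0.12 and 0.088. MKI67, the Ki-67 proliferation marker, was at −0.28 ± 0.37 in MDVR. The part of the dividing share of cells in the members' differences was not tested. Mitotic promoters held the E2F motif in 6.90% of genes and CCAAT in 82.8%, against 45.5% and 63.6% of member genes. The E2F motif was in 16.2% of DNA repair genes and 13.8% of the further nucleotide synthesis genes, with 2.75% over all genes.

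Genes of DNA repair served as a further list of related function, and how closely they are tied to S phase was not measured. Of 45, 38 were measured, with medians of −0.0017 in MDVR and −0.071 in AbiR, and 19 and 22 of 38 were below 0. LIG4, the ligase of end joining, was lowest at −1.13 and −0.55. BARD1, a subunit of a ubiquitin ligase, stood at −0.86 in MDVR and 0.91 in AbiR. DDB2, a sensor of UV damage, was at 0.73 in MDVR, ERCC1 at 0.44 and 0.45 in MDVR and AbiR, and XRCC1 and ATM at 0.30 and −0.31 in MDVR. CHEK1 and APEX1 were at −0.37 and −0.35 in AbiR. No test of the difference between lists was made.

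**Figure D5:**
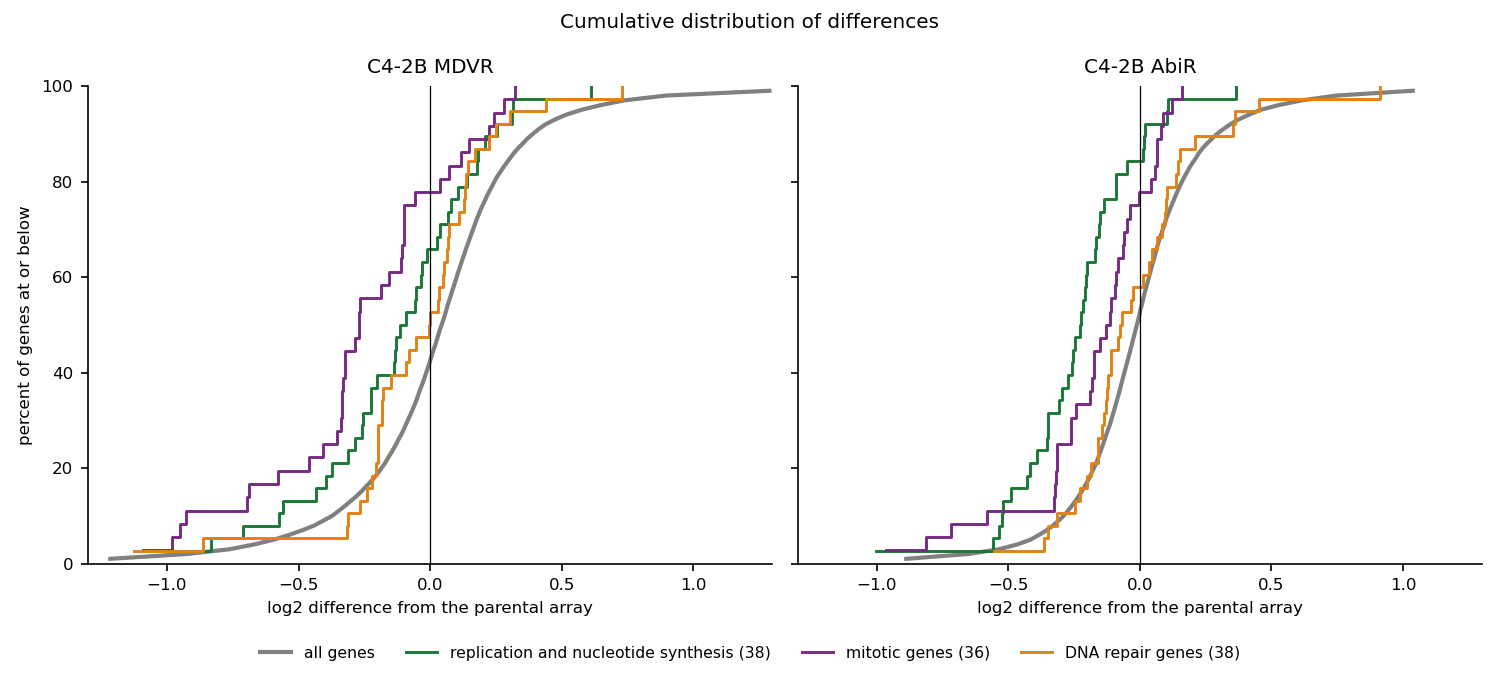
Percent of genes at or below a given log2 difference from the parental array, for the 38 members, 36 mitotic genes, 38 measured DNA repair genes and all genes, in C4-2B MDVR (left) and C4-2B AbiR (right). In AbiR the members' curve lies left of the others over most of its length, with a median of −0.22, and in MDVR the mitotic curve does, with a median of −0.27.

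The 3′ minus 5′ control value of ACTB, which rises as RNA is degraded or shortened, differed from parental by −0.22 in MDVR and −0.12 in AbiR, and that of GAPDH by −0.047 and 0.061. These values were all smaller in size than the largest spiked control, and in AbiR they had opposite signs. The 6 fibroblast, 4 leukocyte and 4 endothelial markers measured had median differences of 0.10, 0.10 and −0.0078 in MDVR and 0.0062, −0.057 and −0.015 in AbiR. The part of RNA quality in the members' differences was not tested.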

How the data were processed

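RNA was profiled on 3 Affymetrix HG-U133 Plus 2.0 arrays, 1 for each of C4-2B parental, MDVR and AbiR, grouped by the sample labels. The authors deposited log2 values processed by RMA, which corrects background, normalizes between arrays and summarizes probes, with its version not given in the sources used here. Each probe set had further been centred: 100% of probe sets allow a median of 4 arrays at 0 (tolerance 2e-06), so that 1 further array, not analysed here, appears to have entered. The array number limits the precision.

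Log2 differences between arrays were taken per probe set and averaged per gene, using the 41097 probe sets annotated to 1 gene, with Python 3.11.15, pandas 2.3.3 and numpy 2.4.6. Counts at least 1.5-fold or 2-fold different, or past the largest spiked control, were set beside the share of all genes. The script was tested on simulated data. All members were named. Array values were written out for the lowest and highest member of each of 8 roles against parental and for members at least 1.5-fold different, and other lists gave their 3 lowest and 3 highest; E2F1, MKI67 in MDVR and the markers KLK2, KLK3, SLC45A3 and ACP3 were added after their values were seen. Promoter letters came from RefSeq, GRCh38.p14. Members and lists were chosen with earlier results of these data known. Alternatives changed the gene summary, the probe sets used, the centring or the members kept.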

Additional observations from a re-analysis of the deposited data

Results flagged for a closer look

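Among the members, 4 stood on opposite sides of parental in the resistant lines by more than 1 SD of the spiked controls. The share of all genes that did so was not taken. ORC1 was at 0.25 in MDVR and −0.49 in AbiR. PRIM1 was at 0.21 and −0.52, RFC4 at 0.18 and −0.29, and RPA2 at 0.31 and −0.21. Each was read by 1 probe set. The difference between the lines was not tested, since each line had 1 array.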

How the results depend on the processing

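No paired analysis was possible because each group holds 1 array. The median difference of the members kept its sign under the 6 alternatives. It ran from −0.20 to −0.076 in MDVR, −0.30 to −0.21 in AbiR and 0.061 to 0.14 for MDVR minus AbiR. Of the 6, 1 left out members with probe sets of opposite sign, which were 9 members in MDVR. That choice rests on the differences themselves, so its medians are no check of robustness. It gave the −0.20 end in MDVR and the 0.14 end for MDVR minus AbiR. With centring on the hybridization controls the MDVR median was −0.15. With each array centred on its median over all probe sets, 0 members were at least 1.5-fold higher in MDVR, in place of 1. Centring on the 18 hybridization controls also gave 0 higher in MDVR, 5 at least 1.5-fold lower in MDVR (GINS1, GINS3, GMNN, MCM10 and RRM2; 5.98% of all genes) and 5 in AbiR (GINS3, GMNN, PRIM1, PRIM2 and RRM2; 3.35%). Without probe sets of suffix _s_at, _x_at or _a_at, 29 members remained measured, GMNN not among them. Of these, 5 were lower than every spiked control in MDVR (12.4% of all genes), in place of 8 of 38 (10.9% of all genes). In AbiR 15 were, in place of 24 of 38 (17.0% of all genes). For MDVR minus AbiR 3 were, in place of 1 of 38 (9.44% of all genes). The 17.0% and 9.44% belong to the counts with suffixed probe sets included. The shares without them are not given here for AbiR or for MDVR minus AbiR. With the median of the probe sets, 2 of 38 were lower than every spiked control for MDVR minus AbiR (9.24% of all genes). The counts past the controls and below 0 under these alternatives were added after seeing the data. No member past 1.5-fold changed sign. GMNN ranged from −0.76 to −0.71 in MDVR and from −1.08 to −1.00 in AbiR. Signal over background is unknown, so a weakly expressed member cannot be told from a well-measured one.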

Other observations

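The 4 probe sets annotated jointly to PRIM2 and PRIM2BP entered no gene value above. In the order parental, MDVR, AbiR, one read −0.050, 0.055 and 0.029, and the next 0.23, −0.00081 and −0.33. The remaining pair read 0.090, 0.081 and −0.37, and 0.042, 0.13 and −0.076. AbiR was the lowest array on 3 of the 4, as it was on the probe set of PRIM2 alone. With these probe sets included, PRIM2 stood at −0.32 in AbiR minus parental.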
